A study of Mus musculus with 8 samples.

Results

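Striated muscle genes were followed in RNA of the mouse thoracic aorta, a vessel whose wall is smooth muscle. The set is a list of 39 genes, of 21368 genes that could be named on the array through RefSeq transcripts. It takes in heavy and light chains of striated myosin, sarcomeric actins, troponins, calcium-handling proteins, muscle enzymes and the natriuretic peptides of the heart, so not every member is itself a part of the sarcomere. They fall into 4 groups by the tissue they are best known from: 4 atrial, 4 ventricular, 12 shared by the chambers of the heart and 19 of fast skeletal muscle. Each gene was read by the probe with its highest mean signal over all arrays. For 6 members the array held more than 1 probe. Of the probes not used, that of Tnnt3 was above background on 7 arrays and the others, of Myh6, Ttn, Myh8, Mylpf and Pvalb, on at most 1.

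The study asked how loss of Fto, which encodes an RNA demethylase, alters expression in the vessel, and set 4 Fto -/- samples against 4 Fto +/+ samples. All mice were labelled male and on a mixed C57BL6J/NMRI background. Their age, and whether each sample is 1 animal, are not stated, so p-values cover only the spread from sample to sample. Each sample went onto its own array, and intensities are given after every array was scaled to a 75th percentile of 350.0; before scaling that percentile ran from 295 to 416. How the Fto allele was made is not stated either.

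In striated muscle, actin and myosin filaments slide past each other in sarcomeres, and calcium starts the contraction by binding troponin. Heart and skeletal muscle use the same plan with different members of each family: atria carry the light chains of Myl7 and Myl4 and the calcium pump inhibitor of Sln, ventricles those of Myl2 and Myl3, and fast skeletal fibres the heavy chains of Myh1, Myh2 and Myh4. Several ventricular genes, among them Myh7, Myl2 and Myl3, are also those of slow skeletal fibres. In mice, atrial-type muscle extends from the heart into the walls of large thoracic veins.

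Fto itself was read at 60.7, 76.8, 59.2 and 51.3 in Fto -/- replicates 1 to 4 and at 529.9, 633, 486 and 447 in Fto +/+ replicates 1 to 4, a log2 difference of -3.08 ± 0.15 (SE, limma adjusted p = 0.000403). In all 8 samples the description field gives the opposite genotype to the title, and the level of Fto followed the title. Against the label male, Xist was well above background on 8 arrays and the Y-linked Ddx3y, Kdm5d and Eif2s3y on 0; Uty, also Y-linked, had a probe above background on 1. All 8 smooth muscle markers were above background on all arrays, with a summed intensity of 879950.0 to 1003050.0 in Fto -/- and 887147 to 1134560.0 in Fto +/+ samples. The 8 arrays shared 1 slide and 1 scan time, but Fto -/- replicates 1 to 3 and Fto +/+ replicate 1 lay in 1 row of it and the other four in the other.

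Of the 39 members, 19 were well above background, by the scanner software's own call, on all 8 arrays, 18 on some and 2, Nppb and Ampd1, on none. Enough signal for a test (above background on at least 4 arrays) was found for 27. Many of these varied widely from array to array: the median range over the 8 arrays was at least 7.9-fold for the 27 members and 1.6-fold for all tested probes, with signals not above background set to the lowest that was. A range of 8-fold or more, a size chosen after the values were seen, was so found in 12 of the 27 (44.4%) and in 0.929% of all tested probes. In bulk RNA, fewer cells of a type and less RNA per cell cannot be told apart.

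**Figure D1:**
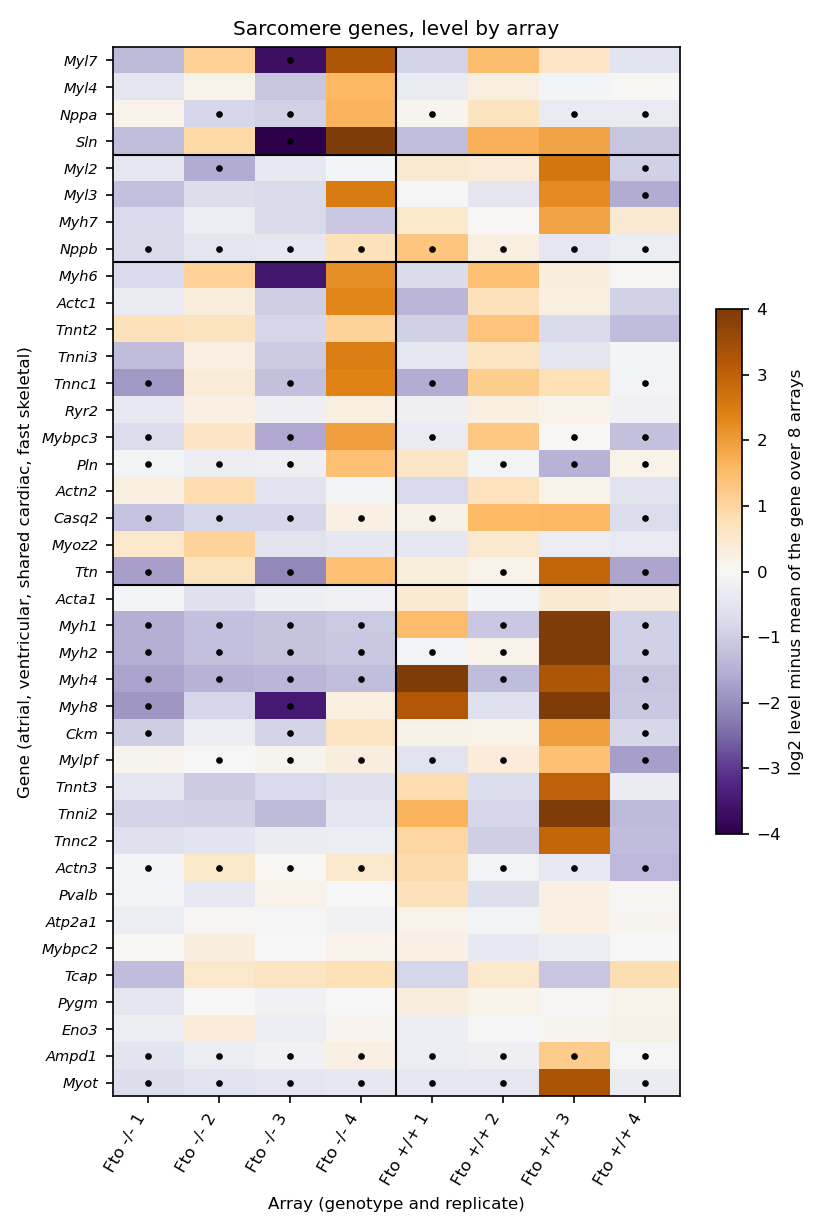
Log2 intensity of the 39 members on the 8 arrays, each gene shown as its difference from its own mean, with genes ordered by group and a black dot where the probe was not well above background. Atrial genes are high on Fto -/- replicate 4 and low on Fto -/- replicate 3, while many fast skeletal genes are high on Fto +/+ replicates 1 and 3.

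The atrial genes Myl7 and Sln varied together over arrays of both genotypes. Myl7, the regulatory light chain of atrial myosin, read 47.9, 264, 9.49 and 1141 in Fto -/- replicates 1 to 4 and 65.6, 342, 179.7 and 84.3 in Fto +/+ replicates 1 to 4. Both the highest and the lowest array lay in the Fto -/- group. On Fto -/- replicate 3 Myl7 was not above background, so its range is a bound, at least 52-fold, taken against the lowest signal counted as above background on that array. Sln, which encodes sarcolipin, a small inhibitor of the calcium pump in atria and in skeletal muscle, read 86.5, 397, 7.15 and 3424 against 87.8, 677, 779 and 95.7. It was highest on Fto -/- replicate 4 and not above background on replicate 3, a range of at least 156-fold.

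Myl4, the atrial essential light chain, which is also made in embryonic skeletal muscle, was above background on every array. It read 2299.8, 3588, 1464 and 9505 in the Fto -/- and 2562, 3849, 3025 and 3278 in the Fto +/+ samples, so its order at the extremes was that of Myl7 within a narrower range of 6.49-fold. Nppa, which encodes the atrial natriuretic peptide, was above background on only 3 arrays and read 38.2, 19.1, 18.2 and 109 against 36.6, 55.1, 27.6 and 27.1. Its highest value too lay on Fto -/- replicate 4. On Fto -/- replicate 2, where Myl7 read 264 and Sln 397, Nppa read only 19.1.

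Myh6, the alpha heavy chain of cardiac myosin and the main one of mouse atria and adult ventricles, read 466, 1702, 70.6 and 3668 in Fto -/- and 477, 2138, 979 and 826 in Fto +/+ samples. Over the 8 arrays it stood in the same order as Myl7 (Pearson's r on log2 values 0.98, exact permutation p = 2.48e-05, adjusted over 7 pairs 0.000174; Spearman's rho 1, exact permutation p = 4.96e-05, adjusted 0.000347). Without the arrays of Fto -/- replicates 3 and 4, the most extreme, r was 0.969. Myl7 and Sln were related nearly as closely (r = 0.979, exact permutation p = 0.000521, adjusted 0.00182; rho 0.929, exact permutation p = 0.00223, adjusted 0.00781), with r = 0.908 without the same arrays. A second probe of Myh6 read 7.19 to 24.9 and was above background on 0 of the 8 arrays, so the values of Myh6 rest on 1 probe. The members that make up the pairs were chosen with earlier results of these data known, so the p-values of the pairs may be too small. The slide row is uneven between the genotypes and holds only 4 arrays, too few for a value within each row.

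**Figure D2:**
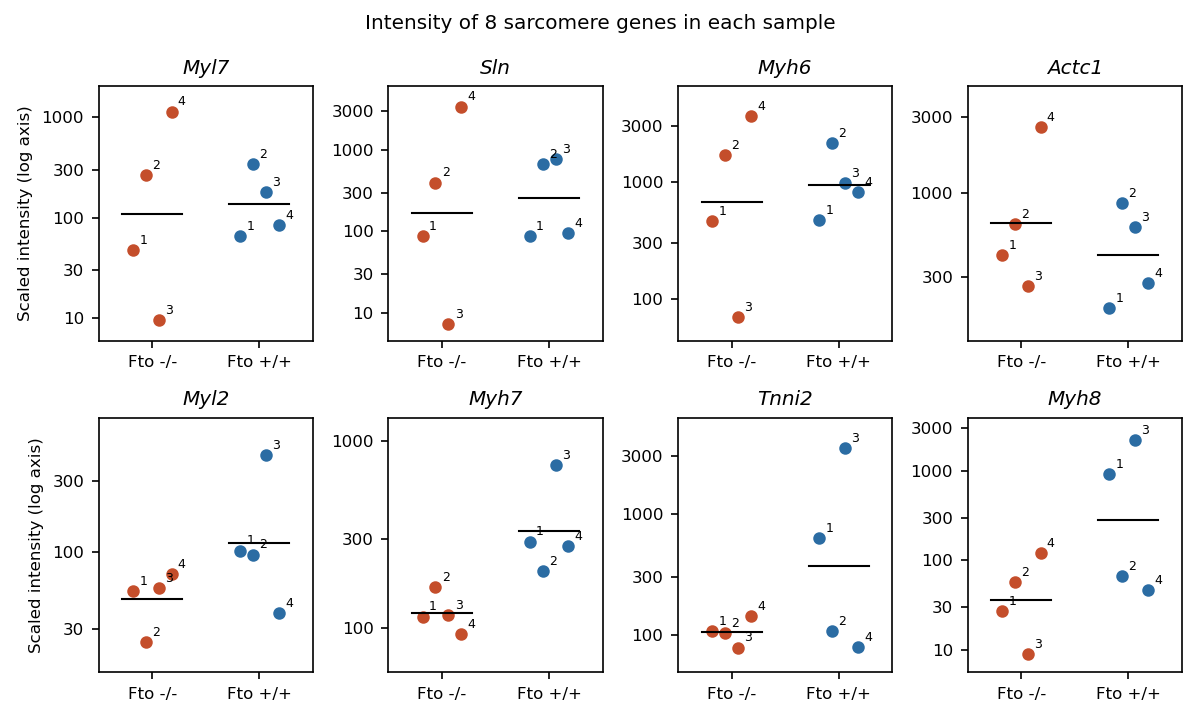
Scaled intensity (log axis) of Myl7, Sln, Myh6, Actc1, Myl2, Myh7, Tnni2 and Myh8 in each of the 4 Fto -/- and 4 Fto +/+ samples, with a bar at the mean of the log2 values. Myl7, Sln and Myh6 share their high and low arrays, which lie in both genotypes, and Myh7 is lower in every Fto -/- sample (at most 165) than in every Fto +/+ sample (at least 201).

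Among the members shared by the chambers, several were also highest on Fto -/- replicate 4. Actc1, the actin of heart muscle, read 413, 642, 263 and 2608 against 191, 868, 616 and 274, with Fto -/- replicate 4 on top. Tnni3, the inhibitory troponin of heart, read 51, 148, 61.4 and 709 against 91.4, 195, 89.9 and 121, with the same array highest. Tnnt2, the cardiac troponin that binds tropomyosin, read 903, 874, 304 and 1130.2 against 282, 1383, 325 and 224 and was highest on Fto +/+ replicate 2. Its relation to Myh6 did not pass the test (r = 0.603, exact permutation p = 0.102, adjusted 0.178; rho 0.595, exact permutation p = 0.132, adjusted 0.232; r = 0.517 without Fto -/- replicates 3 and 4).

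The remaining shared cardiac members were Tnnc1, Ryr2, Actn2, Myoz2, Ttn, Mybpc3, Pln and Casq2. Tnnc1, the calcium-binding troponin of heart and slow fibres, read 7.23, 33.8, 11 and 136 against 8.98, 58.7, 45.5 and 24.2, above background on 4 arrays. Ttn, the giant spring protein of all striated muscle, had its highest value of 224 on Fto +/+ replicate 3. Ryr2, the calcium release channel of heart, which other tissues also use, ranged only 1.6-fold. Actn2 and Myoz2, above background on all 8 arrays, were highest on Fto -/- replicate 2, at 239 and 2192. On Fto -/- replicate 4 they read 121 and 806. Mybpc3, Pln and Casq2 were above background on fewer than 4 arrays and were not tested.

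Promoter sequence is shown for Myl7 and Actc1, 2 members highest on Fto -/- replicate 4, because each holds a CArG box. This motif is bound by serum response factor, a regulator of muscle actin and myosin genes. Myh6, in the same order as Myl7 over the arrays, held TATAAA but no CArG box, and no promoter was given for Sln. Acta1 and Myh4, not highest on that array, also held the box, as did Myl3, which was. A link between the motif and the pattern was not tested. Sequences run from 250 bases before to 50 after the start of transcription, 5′ to 3′ along the gene, from RefSeq on GRCm38.p6, and capitals mark a CArG box, a MEF2 site or TATAAA on either strand. The promoter of Myl7 is chr11:5898733-5899032 on the minus strand and that of Actc1 is chr2:114052826-114053125 on the minus strand.
Myl7: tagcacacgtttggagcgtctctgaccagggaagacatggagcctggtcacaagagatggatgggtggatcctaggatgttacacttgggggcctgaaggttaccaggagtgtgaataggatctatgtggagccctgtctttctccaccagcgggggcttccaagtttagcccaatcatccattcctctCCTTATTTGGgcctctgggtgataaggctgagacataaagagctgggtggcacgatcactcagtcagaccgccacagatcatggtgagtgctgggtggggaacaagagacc
Actc1: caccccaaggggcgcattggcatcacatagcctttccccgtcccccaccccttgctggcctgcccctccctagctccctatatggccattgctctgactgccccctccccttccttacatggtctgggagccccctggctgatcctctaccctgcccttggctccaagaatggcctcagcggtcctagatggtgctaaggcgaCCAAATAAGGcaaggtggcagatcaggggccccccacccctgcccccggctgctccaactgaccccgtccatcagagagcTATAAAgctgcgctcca

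Promoters were given for 32 of the 39 members. A CArG box was found in 5 of them (15.6%: Acta1, Actc1, Myh4, Myl3 and Myl7) and in 1.63% of all 32851 promoters of that length. A MEF2 site, the motif of the myocyte enhancer factors, was found in 8 (25%: Casq2, Mybpc3, Myh1, Myh4, Myh8, Myoz2, Pvalb and Ttn) and in 3.19% of all. TATAAA was found in 11 (34.4%) and in 13.6%, and the E box CANNTG, too short to single out muscle genes, in 29 (90.6%) and in 72.3%. TATAAA can overlap a MEF2 site. These matches are a description of the letters in the window and say nothing of binding in the aorta.

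Of the ventricular genes, only Myl2 was tested against an atrial gene. Myl2, the regulatory light chain of ventricles and slow fibres, read 54.4, 24.6, 56.8 and 70.7 in Fto -/- replicates 1 to 4 and 102, 96.2, 451 and 38.5 in Fto +/+ replicates 1 to 4. On Fto -/- replicate 4, where Myl7 reached 1141, Myl2 stood at 70.7, and its highest value lay on Fto +/+ replicate 3. Over the 8 arrays its relation to Myl7 did not pass the test (r = 0.116, exact permutation p = 0.772, adjusted 0.827; rho 0.119, exact permutation p = 0.793, adjusted 0.793; r = 0.107 without Fto -/- replicates 3 and 4).

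Myl3, the essential light chain of the same fibres, read 50.6, 74, 69.7 and 683 against 115, 84.2, 566 and 39.2. It was high on 2 arrays, the one where the atrial genes peaked and the one where Myl2 did. Its relation to Myl2 did not pass either (r = 0.659, exact permutation p = 0.0787, adjusted 0.178; rho 0.714, exact permutation p = 0.0576, adjusted 0.134), and r fell to 0.432 without Fto -/- replicate 2 and Fto +/+ replicate 3. Nppb, which encodes the ventricular natriuretic peptide, was above background on none of the 8 arrays.

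Myh7, the slow heavy chain of ventricles and slow fibres, was the ventricular member whose values did not overlap between genotypes. It read 115, 165, 117 and 92.9 in Fto -/- and 289, 201, 740.2 and 275 in Fto +/+ samples. Of all tested probes, 7.36% were likewise lower in Fto -/- with no overlap. The log2 difference was -1.46 ± 0.38 (SE, limma adjusted p = 0.0942), and the exact two-sided permutation p for this probe was 0.0286, the smallest that 4 against 4 samples can give. The difference thus missed the threshold over all tested probes.

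Several fast skeletal genes, among them myosin heavy chains and troponins, were highest on Fto +/+ replicates 1 and 3. On replicate 3 the atrial gene Sln was also high, at 779. Myh8, the heavy chain of newborn skeletal muscle, read 27.3, 56.9, 8.9 and 121 in Fto -/- and 925, 67.2, 2209.7 and 46.3 in Fto +/+ samples, a range of at least 101-fold. It was above background on 5 arrays, and a second Myh8 probe, which read 6.13 to 18.7, on 0. Myh4, the heavy chain of the fastest fibres, read 666, 7.96, 184 and 8.86 in the Fto +/+ samples and 6 to 8.15 in the Fto -/- samples, where it was not well above background. The Fto +/+ mean, taken on log2 values, was at least 1.92-fold higher, but Myh4 was above background on only 2 of the 4 Fto +/+ arrays. Without Fto +/+ replicate 1 this mean, then 23.5, lay under the floor of 28.3 for the Fto -/- arrays, so no bound was left.

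The heavy chains of the other fast fibre types were each measured on a few Fto +/+ arrays only. Myh2 read 17.7, 21.3, 1149 and 9.82 in Fto +/+ samples, above background on replicate 3 alone, and 6.67 to 8.75, not well above background, in Fto -/- samples, so that the Fto +/+ mean was at least 1.61-fold higher. Myh1 read 45.4, 7.43, 735 and 8.23 against 5.6 to 7.55 with a mean at least 1.34-fold higher. Both bounds rest on Fto +/+ replicate 3: without it the means were 15.5 and 14.1, under the same floor. Each bound sets the mean of the Fto +/+ arrays against a floor, both averaged on log2 values. The floor was the lowest signal counted as above background on each Fto -/- array, or the probe's own where that was higher. Myh1, Myh2 and Myh4 were not tested, since fewer than 4 arrays measured them, and the 2 arrays differed in their myosins: Myh4 was higher on replicate 1, and Myh1, Myh2 and Myh8 on replicate 3.

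The heavy chain promoters are shown because Myh4 and Myh8 are neighbours in the cluster of skeletal myosin genes and were both high on the same arrays. Both hold a MEF2 site, which overlaps TATAAA in each, and Myh4 also holds a CArG box. They lie at chr11:67237562-67237861 on the plus strand and chr11:67276874-67277173 on the plus strand.
Myh4: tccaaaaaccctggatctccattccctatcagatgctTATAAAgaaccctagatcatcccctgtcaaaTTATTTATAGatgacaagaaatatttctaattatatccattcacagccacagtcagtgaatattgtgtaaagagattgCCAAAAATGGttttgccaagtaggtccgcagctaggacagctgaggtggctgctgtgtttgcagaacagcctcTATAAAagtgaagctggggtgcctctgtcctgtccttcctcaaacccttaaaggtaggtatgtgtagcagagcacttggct
Myh8: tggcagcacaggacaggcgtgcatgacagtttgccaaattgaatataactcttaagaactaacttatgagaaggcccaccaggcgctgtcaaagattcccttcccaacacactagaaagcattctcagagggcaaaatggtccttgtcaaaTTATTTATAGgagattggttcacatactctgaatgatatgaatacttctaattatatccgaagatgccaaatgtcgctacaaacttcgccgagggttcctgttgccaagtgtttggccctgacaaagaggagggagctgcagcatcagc

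The fast troponins showed the same arrays. Tnni2, the inhibitory subunit, read 107, 104, 78.2 and 142 in Fto -/- and 632, 108, 3464 and 79 in Fto +/+ samples. Tnnc2, the calcium-binding subunit, read 369, 385, 447 and 456 against 1080.4, 280.0, 4188 and 222. Tnnt3, which ties the complex to tropomyosin, read 91, 61.7, 73.7 and 84.8 against 231, 78.3, 1034 and 104. In all of these Fto +/+ replicate 3 was highest and replicate 1 next, and every other array lay lower. With both arrays left out, a choice made after the values were seen, the log2 difference of Tnni2 moved from -1.81 to 0.19, that of Tnnc2 from -0.82 to 0.72, that of Tnnt3 from -1.45 to -0.23 and that of Myh8 from -2.97 to -0.63. As 2 arrays stand apart from the rest, no correlation is given for these genes.

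**Figure D3:**
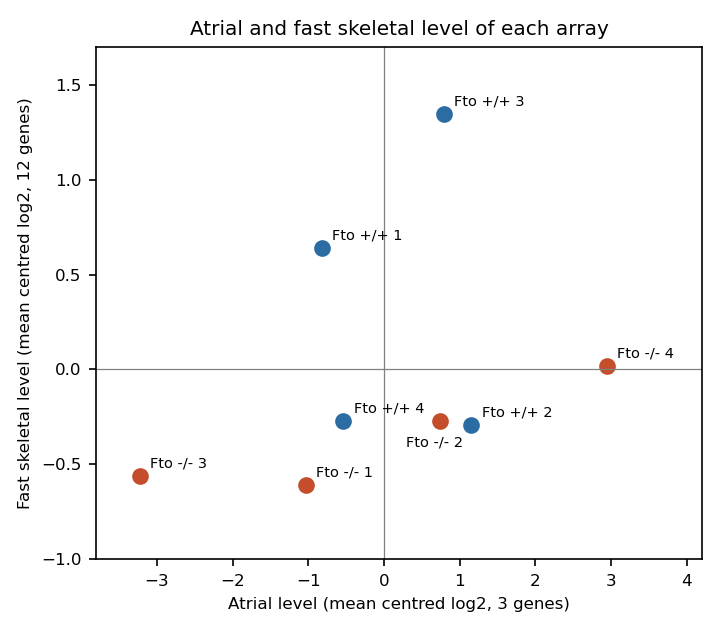
Level of the 3 tested atrial and 12 tested fast skeletal genes on each array: the mean over the genes of log2 intensity, each gene centred on its mean over the 8 arrays. The atrial level runs from -3.23 on Fto -/- replicate 3 to 2.94 on Fto -/- replicate 4, and the fast skeletal level from -0.61 on Fto -/- replicate 1 to 1.35 on Fto +/+ replicate 3.

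Acta1, the actin of adult skeletal muscle, was bright on every array. It read 7816, 5566, 6969.8 and 7252 in Fto -/- and 11089, 7741, 11151 and 10055 in Fto +/+ samples, where only Fto -/- replicate 1 exceeded any Fto +/+ value. The log2 difference was -0.53 ± 0.15 (SE, limma adjusted p = 0.123); the exact two-sided permutation p was 0.0571. Its relations to Myh6 (r = -0.0971, exact permutation p = 0.827, adjusted 0.827; rho -0.167, exact permutation p = 0.703; r = -0.537 without Fto -/- replicates 3 and 4) and Myl7 (r = -0.127, exact permutation p = 0.779, adjusted 0.827; rho -0.167, exact permutation p = 0.703; r = -0.436 without the same arrays) did not pass the test.

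Ckm, the muscle creatine kinase that buffers ATP, read 26.4, 46.1, 29 and 83 against 61.2, 60.3, 209 and 30.3 and peaked on Fto +/+ replicate 3. Mylpf, the light chain of fast fibres, read 33.6, 30.5, 33.4 and 38.2 against 21.4, 39.5, 83.1 and 9.11, was above background on 2 arrays only and could not be set against Acta1. Pygm, the muscle phosphorylase that breaks down glycogen, read 1532, 2094, 1949 and 2097 against 2607, 2406, 2208 and 2389 and did not overlap between genotypes (log2 difference -0.33 ± 0.12 SE, limma adjusted p = 0.199; exact two-sided permutation p = 0.0286). The calcium buffer Pvalb, the fast calcium pump Atp2a1, the myosin-binding protein Mybpc2 and the muscle enolase Eno3 had log2 differences of -0.19 ± 0.26, -0.19 ± 0.11, 0.20 ± 0.15 and -0.028 ± 0.17 (SE). Actn3 and Myot, a pair of Z-disc proteins, were each above background on 1 array, and Ampd1 on none.

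Between genotypes, limma called 0 of the 27 tested members higher and 0 lower in Fto -/- samples at an adjusted p of 0.05, where 1.66% of the 25292 tested probes were called (0.842% higher and 0.814% lower). At an unadjusted p under 0.05 there were 3 (11.1%), Myh7, Acta1 and Pygm, all lower in Fto -/-, against a background of 19% of probes in either direction, 8.72% higher and 10.3% lower. Groups that did not overlap were seen for 2 members (7.41%), both lower, against 12.1% of all probes, 4.75% higher and 7.36% lower. The count at an unadjusted p under 0.05 depended on the samples. It was 1 higher and 6 lower without Fto +/+ replicate 2, where 1846 of the 25292 tested probes were higher and 2014 lower. Without Fto +/+ replicate 4 it was 0 higher and 7 lower, where 2920 of all tested probes were higher and 3414 lower. Each slide row holds 1 sample of a genotype against 3, so only the median log2 difference of the members is given for it. This was -0.41 within the first row and 0.18 within the second.

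Of the 27 log2 differences 8 were above 0 and 19 (70.4%) below, where 52.5% of all tested probes were below, with a median of -0.19 against -0.015 over all tested probes. That median turned to 0.054 without Fto -/- replicate 3, to 0.11 with slide row as a block and to 0.18 within the second row, and was -0.61 without Fto -/- replicate 4, so it has no settled direction. By group the median was -0.33 for the 3 atrial genes tested, -1.25 for the 3 ventricular, 0.19 for the 9 shared cardiac and -0.43 for the 12 fast skeletal genes. Standard errors reached 1.72 for Sln, so differences of several-fold could not be shown for the most variable members. For Myl7 the log2 difference was -0.33 ± 1.33 (SE, limma adjusted p = 0.916), for Myh6 -0.50 ± 1.11 (SE, limma adjusted p = 0.839) and for Sln -0.60 ± 1.72 (SE, limma adjusted p = 0.877). Leaving out Fto -/- replicate 3 moved that of Myl7 to 0.84, and leaving out Fto -/- replicate 4 moved it to -1.46.

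**Figure D4:**
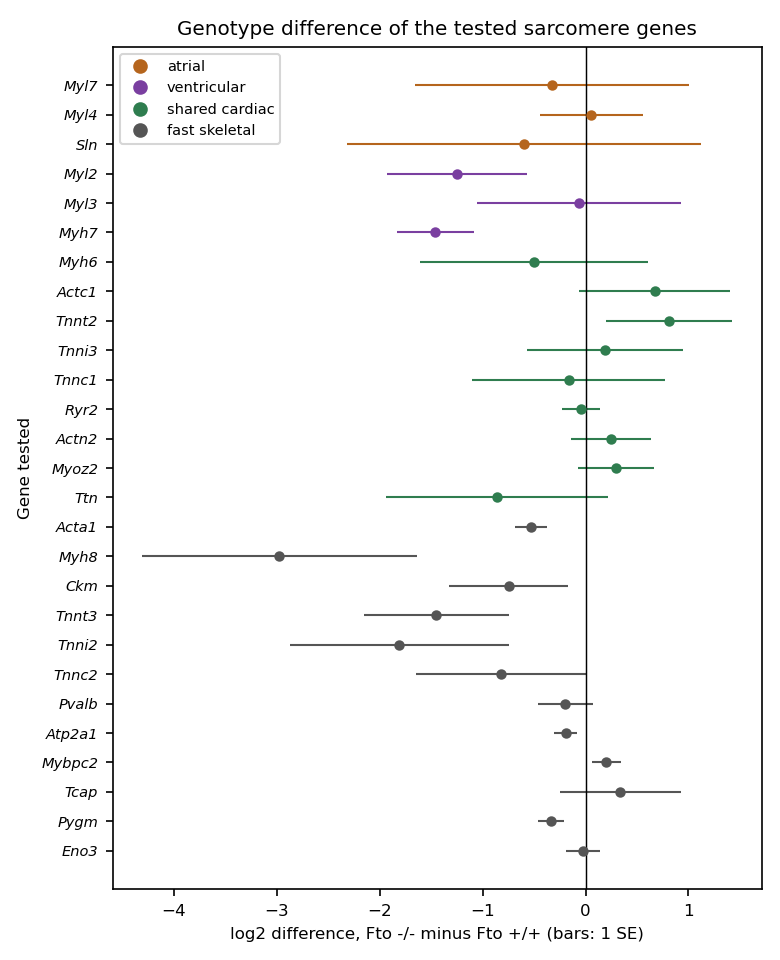
Log2 difference, Fto -/- minus Fto +/+, of the 27 tested members by group, with bars of ±1 SE from limma (n = 4 each) and a line at 0. No member passed an adjusted p of 0.05; Myh8 has the lowest value (-2.97 ± 1.33) and Tnnt2 the highest (0.81 ± 0.61).

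Tcap, which encodes telethonin, the cap that joins titin at the Z-disc, split the arrays in another way. It read 14004, 50536, 53968 and 60943 in Fto -/- and 19190.0, 49494, 15635 and 61589.7 in Fto +/+ samples, so that Fto -/- replicate 1 and Fto +/+ replicates 1 and 3 were low, at most 19190.0, and the others at least 49494. Its log2 difference was 0.34 ± 0.59 (SE, limma adjusted p = 0.788). In heart, Tcap is known as a target of the circadian clock, and clock genes were set beside it after its values were seen. Among tested named genes, the pattern most like that of Tcap was that of Pik3ip1. The clock genes Ciart, Per3 and Dbp were also among the 10 nearest on these arrays. Their likeness to Tcap is thus a description of genes picked from the same data.

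Dbp, a transcription factor driven by the clock, read 5717, 21571, 35209 and 42372 against 8172, 38314, 2574 and 31842, lowest on the same arrays as Tcap. Per3, a repressor of the clock, read 109.8, 340.3, 627 and 545 against 103, 319, 64.7 and 398, and Tef, a relative of Dbp, 15377, 34822, 32849 and 38079 against 17157, 43769.8, 11021 and 30497. Arntl, the activator that peaks in the opposite phase, read 875, 289.6, 155 and 146 against 1025, 64.6, 1334 and 325 and was highest on those 3 arrays. With arrays that fall into separate groups no correlation is given, the hour at which mice were sampled is not stated, and a link between Tcap and these genes was not tested. Fto +/+ replicates 1 and 3, on which fast skeletal genes were high, are among the 3 arrays.

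**Figure D5:**
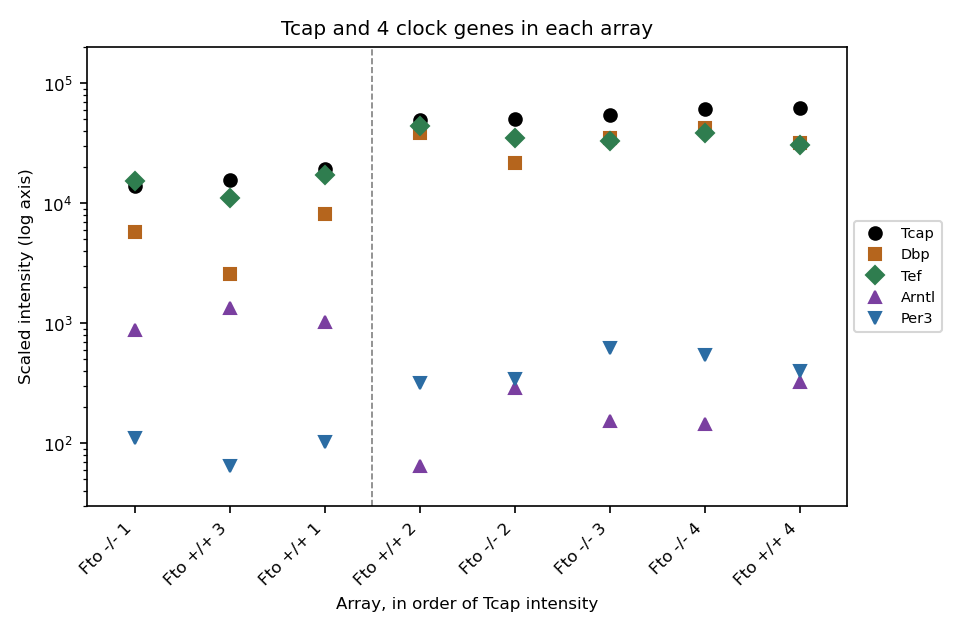
Scaled intensity (log axis) of Tcap and the clock genes Dbp, Tef, Per3 and Arntl on the 8 arrays, ordered by Tcap. Tcap, Dbp, Tef and Per3 are lowest on Fto -/- replicate 1 and Fto +/+ replicates 1 and 3, where Arntl is highest (875, 1025 and 1334).

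Muscle genes outside the set were counted from 3 further lists, and limma called 0 genes in each. Of 20 other cardiac genes 9 were tested, with 0 higher and 1 lower at an unadjusted p under 0.05 (over all probes, 8.72% higher and 10.3% lower) and a median log2 difference of -0.036. The lowest p were those of Tbx20, a cardiac transcription factor (-0.56 ± 0.15 SE, limma adjusted p = 0.101), and Hspb7, a small heat shock protein of heart (-0.49 ± 0.26 SE, limma adjusted p = 0.344). Of the 20, 13 were above background on at least 1 array and 8 on all 8. Nkx2-5, Gata4 and Tbx5, regulators that define heart muscle cells, were above background on none of the 8 arrays, nor were Bmp10, Kcnj3, Tecrl and Corin. On the same list Tbx20, Irx4 and Hand2 were above background on 8, 6 and 3 arrays.

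Of 20 other skeletal genes 9 were tested, with 3 higher (33.3%, against 8.72% of all probes) and 0 lower (10.3% of all) at an unadjusted p under 0.05 and a median of -0.021. Stac3 (0.59 ± 0.15 SE, limma adjusted p = 0.0931) and Casq1 (0.72 ± 0.22 SE, limma adjusted p = 0.134), both of the calcium release machinery, had the lowest p. The myogenic factors Myod1, Myog, Myf5 and Myf6 and the satellite cell factor Pax7 were likewise above background on none. Of 22 genes of muscle structure shared by heart and skeletal muscle, 16 were tested, with 2 higher (12.5%, against 8.72% of all probes) and 3 lower (18.8%, against 10.3%) and a median of -0.11. Des, the desmin of muscle intermediate filaments (0.41 ± 0.12 SE, limma adjusted p = 0.128), and Cryab, a chaperone of desmin (-0.30 ± 0.094 SE, limma adjusted p = 0.143), had the lowest p.

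Among the tested named genes outside the set, which leaves out genes above background on fewer than 4 arrays, the pattern over the 8 arrays most like the cardiac level was that of Myom2, which crosslinks myosin at the M-band (r = 0.963, a description over 8 arrays that share the same slide), then Cox6a2, a muscle subunit of cytochrome oxidase (r = 0.954), and Pgam2, the muscle phosphoglycerate mutase (r = 0.872). Next came Taf5, a subunit of the general transcription machinery (r = 0.854), and Tyk2, a kinase of cytokine receptors (r = 0.84). Of these genes, Myom2 was on the list of other skeletal genes and Cox6a2 on that of muscle structure shared by heart and skeletal muscle. The pattern most like the fast skeletal level was that of R3hdm4 (r = 0.967), followed by Egln1, an oxygen sensor (r = 0.927), and none of the 10 nearest was on a muscle list.

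Markers of other tissues were read beside these results. Of 6 lung epithelium markers 5 were above background on none of the 8 arrays. The other, Scgb1a1, was above background on 6 arrays and read 30.1 to 352. Of 5 oesophageal epithelium markers 3 were above background on at least 1 array: Trp63 on 8, at 3114 to 4896, Krt14 on 4 and Krt5 on 1. Of 5 cartilage and bone markers 3 were: Comp on 8, at 3439 to 10620, Acan on 8, at 81.2 to 215, and Ibsp on 6, at 8.78 to 963. The summed intensity of 7 brown adipocyte markers was 26170.2 to 129218 in Fto -/- and 12264 to 25529 in Fto +/+ samples, and that of 8 thymus and T cell markers was 3666, 1546, 5183 and 3371 in Fto -/- and 1764, 4341, 1389.8 and 2261 in Fto +/+ samples. The brown adipocyte sum was higher in Fto -/- with no overlap, by a narrow gap. Of all tested probes, taken singly, 4.75% were likewise higher with no overlap. Singly, Cidea and Cox7a1 did not overlap, while Ucp1, Elovl3, Ppargc1a, Dio2 and Prdm16 did. At an unadjusted p under 0.05, limma gave 3 of the 6 tested as higher and 0 as lower (over all probes, 8.72% higher and 10.3% lower). It called 0 of the 6 at an adjusted p of 0.05. The arrays with the most thymic signal, Fto -/- replicate 3 and Fto +/+ replicate 2, were one low and one high in atrial genes. The part of other tissues in the results was not tested.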

How the data were processed

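RNA of 8 thoracic aorta samples was read on 1-colour Agilent arrays. Per the file headers, the scanner files deposited hold background-subtracted intensity per spot, made with Feature Extraction 11.0.1.1. A series table, also deposited, gives log2 values, each probe centred on its median over arrays, as its values show (r 0.983 to 0.997 with the scanner values; column medians -0.0095 to 0.0048); how it was normalised is not stated. Control spots were left out and outlier spots set missing. Log2 intensity minus each array's 75th percentile was compared with limma 3.58.1 in R 4.3.3 for probes well above background on at least 4 arrays, with Benjamini-Hochberg adjustment over 25292 probes and a threshold of 0.05. The fit was tested on simulated data. Single probes and pairs were tested by exact two-sided permutation.

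The members and lists were chosen with earlier results of these data known. Values in every sample are given for members of the correlated pairs, the atrial and ventricular groups, Myh4, Ckm, Tnni3, Actc1 and the 3 members of widest range; Tnnc1, Tnni2, Tnnc2, Tnnt3, Myh1, Pygm, Tcap and the clock genes were added after their values were seen. Replicate numbers were not taken as pairs in the main fit. Deviations of same-numbered samples correlated at 0.155, -0.0235, -0.0189 and -0.0407. Samples of unlike number were not compared in this way, so whether the numbers pair samples is not settled. The number of arrays limits the precision.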

Additional observations from a re-analysis of the deposited data

Results flagged for a closer look

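Of 54 groups of 4 samples, 2 held a sample that stood apart from the other three by Dixon's test, which flags about 1 group in 20 by chance. Myl3 in Fto -/- replicate 4 read 683, against 50.6 to 74.0 in the other Fto -/- samples. Tcap in Fto -/- replicate 1 read 14004, against 50536 to 60943 in the other Fto -/- samples.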

How the results depend on the processing

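Under each of the 19 alternatives run, limma called 0 members higher and 0 lower in Fto -/- samples. The members' log2 differences kept their direction in 442 of 505 values, and 9 members kept it under every alternative. The adjusted p of Myh7 ran from 0.078 to 0.937. The counts of all probes called higher and lower, 213 and 206, moved to 61 and 35 with no filter, 90 and 42 with the replicate block, 33 and 13 with slide row as a block, 0 and 0 within row 1, 1 and 0 within row 2, and 39 and 13 without both Fto +/+ replicates 1 and 3. Leaving out 1 sample gave 55 to 499 higher and 46 to 387 lower.

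Directions turned as follows, as log2 differences; the cause was not tested. With normexp, chosen after seeing the data, Myl7 was 0.31 and Tnnc1 0.16. Eno3 was 0.024 with quantile normalisation and 0.022 in the series table. With slide row as a block, Myl7 was 1.15, Sln 1.36, Myl3 0.81, Myh6 0.65, Tnnc1 1.20, Ryr2 0.13 and Eno3 0.088. Within row 1, Myl4 was -0.16, Tnni3 -0.24, Tnnc1 0.63, Ryr2 0.088, Mybpc2 -0.13 and Eno3 0.18. Within row 2, Myl7 was 2.72, Sln 3.21, Myl3 2.47, Myh6 1.61, Tnnc1 1.76, Ryr2 0.18, Actn2 -0.22, Myoz2 -0.36, Ttn 0.96, Ckm 0.20 and Pvalb 0.090. Each row holds 1 sample of a genotype against 3, the single one assumed to vary like the others. Without both Fto +/+ replicates 1 and 3, Myl4 was -0.12, Myl3 1.01, Tnni3 -0.19, Ttn 0.33, Tnni2 0.19, Tnnc2 0.72, Pvalb 0.19 and Tcap -0.50.

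Leaving out 1 sample gave ranges across 0 for Myl7 (-1.46 to 0.84), Myl4 (-0.45 to 0.44), Sln (-2.04 to 0.92), Myl3 (-0.92 to 0.67), Myh6 (-1.32 to 0.58), Tnni3 (-0.61 to 0.66), Tnnc1 (-0.99 to 0.42), Ryr2 (-0.14 to 0.084), Actn2 (-0.0068 to 0.52), Tnnc2 (-1.39 to 0.020), Pvalb (-0.44 to 0.018) and Eno3 (-0.16 to 0.054). It gave r from 0.373 to 0.896 for Myl2 and Myl3, from -0.560 to 0.0861 for Myh6 and Acta1 and from -0.474 to 0.0171 for Myl7 and Acta1. Normexp on mean signals was not run, as the files used here hold median signals; the relation of Acta1 to Mylpf was not computed because 2 arrays measured Mylpf.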

Other observations

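Some muscle genes outside the set, chosen after their values were seen, were high on arrays of both patterns. Mb, the oxygen store of heart and slow muscle, read 52, 139, 277 and 1161 in Fto -/- and 114, 156, 1373 and 29.7 in Fto +/+ samples, and Ckmt2, the mitochondrial creatine kinase of striated muscle, read 6.65, 24.3, 8.78 and 226 against 12.6, 58.4, 584 and 10.3. Cox6a2 read 74.6, 307, 30.8 and 2075 against 166, 278, 1325 and 69. All of these were highest on Fto -/- replicate 4 and Fto +/+ replicate 3, the arrays on which atrial and fast skeletal genes peaked. Csrp3, a Z-disc protein of heart and slow muscle, read 13.1, 22.4, 6.51 and 285 against 6.31, 43.2, 71.4 and 7.51 and was above background on 3 arrays. Myl1, the fast skeletal essential light chain, read 149, 154, 226 and 386 against 236, 212, 1095 and 58.4, highest on Fto +/+ replicate 3.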
